A study of Mus musculus with 3 samples.

Results

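The BCL2 family of apoptosis regulators was followed through single-cell RNA sequencing of mouse neural progenitors given electric pulses. It was represented by 10 genes of the 32285 in the files, chosen by symbol: Bbc3, Pmaip1, Bcl2l11, Bid, Bad, Bax and Bak1, which promote cell death, and Bcl2, Bcl2l1 and Mcl1, which protect from it. Each symbol matched 1 row. The 3 groups, of 1 library each, were cells given bulk electroporation (BEP) in a Nucleofector, cells given localized electroporation (LEP) by 400 pulses of 20 V on the device they had been plated on, and a control (CTRL), of which the labels say no more. Cells of all groups came from neurospheres of postnatal day 1 mice, grown with epidermal growth factor at 20 ng/mL, and were collected 4 h after treatment. The labels name no strain, genotype or cargo. They do not say whether control cells lay on dishes or on devices, so the device and the pulses given on it cannot be told apart. With 1 library per group no test was possible, and every interval below, at 95%, covers counting error only and not the variation between libraries.

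BCL2 family proteins decide at the outer mitochondrial membrane whether a cell dies. The effectors Bax and Bak1 form pores through which cytochrome c escapes and caspases are switched on. Protectors such as Bcl2, Bcl2l1 (BCL-XL) and Mcl1 hold the effectors back, and the BH3-only proteins, of which Bbc3 (PUMA), Pmaip1 (NOXA), Bcl2l11 (BIM), Bid and Bad were followed here, bind the protectors or the effectors and tip the balance towards death. In neural progenitors the family is known for culling cells after DNA damage, largely through p53, the activator of Bbc3, Pmaip1 and Bax. Much of its control acts on the proteins by cleavage, phosphorylation and turnover, which transcript counts do not show.

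A barcode was taken as a cell if it held 3000 UMIs (unique molecules counted) and 500 genes or more, with no more than 20% of UMIs from mitochondrial genes, which left 5531 bulk, 6298 localized and 6091 control cells with 77491732, 76177026 and 61775756 UMIs in that order. Their median depth was 11644 UMIs in bulk, 10980.5 in localized and 9542 in control cells, and cells above 25000 UMIs made up 9.64% of bulk, 2.75% of localized and 1.12% of control cells. The median mitochondrial share was 4.12% in bulk, 3.42% in localized and 3.44% in control cells. All 8 neural stem or progenitor markers reached 5 CPM in every library, where CPM are UMIs scaled to 1000000 per library. Markers of 4 other lineages (erythroid cells, endothelium, mural cells or fibroblasts, and microglia or macrophages) each summed to at most 1.35 CPM in any library, with C1qa, Tyrobp and Aif1 at 0 in all 3. Markers of some other neural lineages differed between libraries. The 7 astrocyte markers summed to 367 CPM in bulk, 793 CPM in localized and 335 CPM in control cells. The 5 neuron markers differed little, at 235, 210 and 227 CPM in the same order. The 6 replicating markers summed to 5231, 6409 and 7207 CPM in that order, and the 6 dividing markers to 1585, 1218 and 1455 CPM. The 6 oligodendrocyte markers summed to 54.5 CPM in bulk, 120 CPM in localized and 56.3 CPM in control cells, and the part of this mix in the results over all cells was not tested beyond the values within clusters and at an equal mix of clusters. Of the cell barcodes, 9 were shared by bulk and control, 6 by localized and control, and 7 by bulk and localized electroporation.

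The results turned mostly on Bbc3 and Mcl1, so the 300 bases from 250 before to 50 after an annotated start of each gene are shown first, from RefSeq on GRCm38.p6. Bbc3 has 3 such windows in that table, of which the most upstream one, chr7:16309333-16309632 on the plus strand, is shown, and Mcl1 has 1, chr3:95658471-95658770 on the plus strand. Reads of transcript 3' ends do not tell which start was used. Capitals mark the letters GGGCGG, a core that Sp1 family factors bind, and TGACG, part of the site of CREB and ATF factors, read on either strand, and none of these matches overlap between the 2 motifs.
Bbc3: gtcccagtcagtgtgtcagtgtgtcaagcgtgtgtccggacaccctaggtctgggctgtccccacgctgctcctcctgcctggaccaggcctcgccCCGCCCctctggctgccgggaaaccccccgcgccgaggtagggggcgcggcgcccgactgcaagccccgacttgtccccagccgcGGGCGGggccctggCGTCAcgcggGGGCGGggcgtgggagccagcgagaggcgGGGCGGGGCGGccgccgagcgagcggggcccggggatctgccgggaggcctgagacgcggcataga
Mcl1: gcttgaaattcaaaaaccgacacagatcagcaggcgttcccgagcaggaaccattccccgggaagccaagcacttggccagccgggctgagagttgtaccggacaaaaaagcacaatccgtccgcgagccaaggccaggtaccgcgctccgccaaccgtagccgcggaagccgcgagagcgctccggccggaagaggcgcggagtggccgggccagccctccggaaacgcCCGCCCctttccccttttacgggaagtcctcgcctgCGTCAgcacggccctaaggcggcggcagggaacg
The Bbc3 window held 5 GGGCGG matches and the Mcl1 window held 1, and each held 1 TGACG match, starting at -55 from the annotated start in Bbc3 and at 16 after it in Mcl1. Of all 32851 windows of this length in the table, 35.7% held GGGCGG and 20.8% held TGACG. TTGCATCA, the composite C/EBP-ATF site, was in neither window and in 0.895% of all windows, and the p53 response element without spacer or mismatch was in neither window and in 0.00913% of all. CACGTG, the E-box, was in neither window shown, in 1 other Bbc3 window and in that of Bax, and in 7.15% of all, and the CArG box was in no member's window and in 1.63% of all. Of the 10 members, 9 had a window, and TGACG was otherwise found only in the single window of Bcl2, starting at -107. These matches are letters in a window and not shown to be bound.

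Among the BH3-only genes, Bbc3 differed most between the libraries. Bbc3 (ENSMUSG00000002083, GRCm38 chromosome 7, 16308393 to 16318205, plus strand, protein coding) stood at 38.9 CPM in bulk (3014 UMIs, exact Poisson interval 37.5 to 40.3), 14.7 CPM in localized (1118 UMIs, 13.8 to 15.6) and 29.8 CPM in control cells (1843 UMIs, 28.5 to 31.2). Localized electroporation was thus the low library over all cells, and the intervals of the 3 libraries did not overlap, but in cells of 5 to 10% mitochondrial UMIs those of localized and control cells did. The log2 ratio of Bbc3, taken on CPM + 1 and with 1.5-fold at 0.585, was -0.98 in localized over control, 0.37 in bulk over control and 1.35 in bulk over localized electroporation. The UMI fold behind the last ratio was 2.65 (exact binomial interval 2.47 to 2.84), and 99.5% of the 9535 genes with a mean of at least 5 CPM over the 3 libraries had a lower ratio. Over all cells, bulk and localized electroporation thus lay on opposite sides of control for this activator of apoptosis, with bulk within 1.5-fold of control. In cells of 6000 to 20000 UMIs the ratio of bulk over control was 0.15.

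Pmaip1, which mainly neutralises Mcl1, had the same order of libraries at a lower level. It stood at 8.85 CPM in bulk (8.20 to 9.54), 4.17 CPM in localized (3.73 to 4.66) and 6.35 CPM in control cells (5.73 to 7.01). The ratio was 0.93 in bulk over localized electroporation, 0.42 in bulk over control, and -0.51 in localized cells over control, the last of which passed 1.5-fold only with a pseudocount of 0.1 CPM or under median-of-ratios scaling (-0.60). Hrk, a further BH3-only gene outside the 10, had 188 UMIs (2.43 CPM) in bulk, 48 (0.630 CPM) in localized and 102 (1.65 CPM) in control cells. Bmf and Bik, further BH3-only genes, were not lowest in localized cells. Bmf had 67 UMIs in bulk, 55 in localized and 22 in control cells, and Bik had 20, 15 and 10 in the same order. Hrk, Bmf and Bik were chosen after their values were seen and lay below the minimum.

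The other BH3-only genes among the 10 members were not lowest in localized cells. Bad, a sensor of growth factor withdrawal that is held inactive by phosphorylation, stood at 38.2 CPM in bulk (36.8 to 39.6), 46.2 CPM in localized (44.7 to 47.8) and 29.9 CPM in control cells (28.6 to 31.3). Its ratio was 0.61 in localized over control, 0.34 in bulk over control and -0.27 in bulk over localized electroporation. Both treated libraries thus stood above control over all cells. Among cells of 5 to 10% mitochondrial UMIs the intervals of bulk and control cells overlapped. Bad overlaps Gpr137 on the opposite strand, and reads of the pair cannot be told apart unless strand was used in counting. Bcl2l11, a potent binder of every protector, had 9.24 CPM in bulk (8.58 to 9.94), 7.29 CPM in localized (6.69 to 7.92) and 6.10 CPM in control cells (5.50 to 6.75). Its ratio was 0.53 in bulk over control, and 0.22 in localized cells over control, and the intervals of localized and control cells overlapped slightly. Bid, which is activated by caspase-8 cleavage and links the death receptors to mitochondria, was the one member below the minimum, with a mean of 3.75 CPM. It had 256 UMIs (3.30 CPM) in bulk, 379 (4.98 CPM) in localized and 183 (2.96 CPM) in control cells, a ratio of 0.59 in localized over control and 0.12 in bulk over control.

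The effectors differed little. Bax stood at 647 CPM in bulk (641 to 652), 562 CPM in localized (557 to 567) and 611 CPM in control cells (605 to 617), with ratios of 0.08 in bulk over control, which became -0.0092 under median-of-ratios scaling, and -0.12 in localized over control. After each cell was thinned to 3000 UMIs, 83.1% of bulk, 78.7% of localized and 80.9% of control cells held a Bax UMI. Bak1 stood at 39.2 CPM in bulk (37.9 to 40.7), 30.5 CPM in localized (29.2 to 31.7) and 34.3 CPM in control cells (32.8 to 35.8). Bak1 had a ratio of 0.36 in bulk over localized electroporation, 0.19 in bulk over control, and -0.17 in localized cells over control. Bulk cells were thus highest and localized cells lowest in both effectors, within 1.5-fold.

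All 3 protectors stood highest in bulk cells, with Mcl1 furthest from control. Mcl1, a short-lived protein that is replaced by constant synthesis (ENSMUSG00000038612, GRCm38 chromosome 3, 95658788 to 95663176, plus strand, protein coding), stood at 140 CPM in bulk (10865 UMIs, 138 to 143), 104 CPM in localized (7958 UMIs, 102 to 107) and 85.1 CPM in control cells (5257 UMIs, 82.8 to 87.4). The ratio was 0.71 in bulk over control, 0.29 in localized over control and 0.42 in bulk over localized electroporation. Over all cells the 3 libraries thus stood apart with control lowest. In cells of 3000 to 6000 UMIs and in clusters 4 and 5, described below, the intervals of bulk and localized cells overlapped. Bcl2, the founding protector, had 19.9 CPM in bulk (1543 UMIs), 14.1 CPM in localized (1076 UMIs) and 13.2 CPM in control cells (818 UMIs). Its ratio was 0.55 in bulk over control, while that of localized over control was 0.09, and -0.02 under median-of-ratios scaling. Bcl2l1 hardly differed. It had 18.8 CPM in bulk (17.8 to 19.7), 16.3 CPM in localized (15.4 to 17.3) and 17.2 CPM in control cells (16.2 to 18.3). Its ratios were 0.12 in bulk over control, and -0.07 in localized cells over control, the second of which was 0.05 with 10% free RNA taken away, and its counts include the death-promoting splice form, which 3' counts do not separate.

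**Figure D1:**
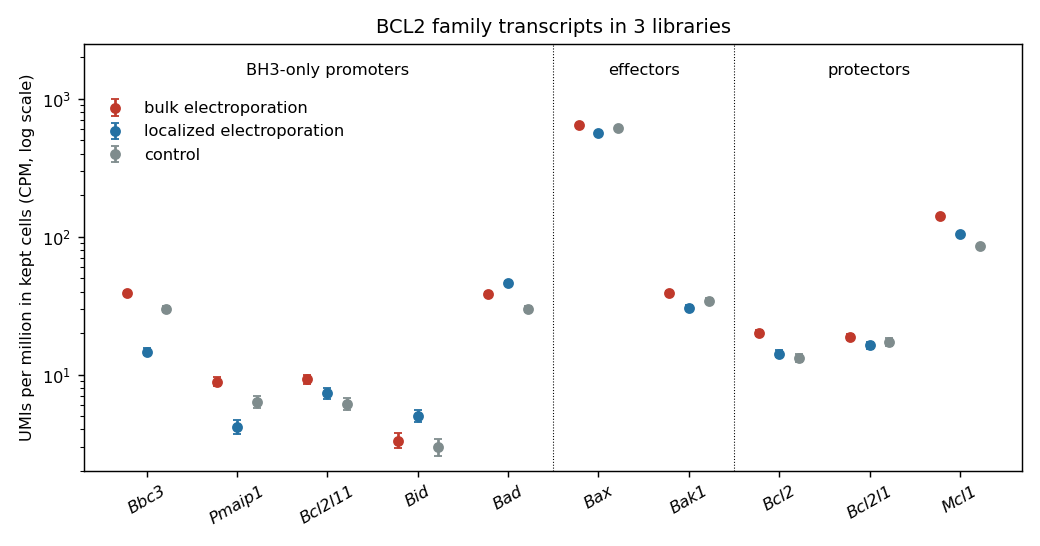
Levels of the 10 members in CPM, on a log axis, in bulk electroporation, localized electroporation and control (1 library each); bars are exact Poisson intervals of the UMI sums at 95% and cover counting error only. Bbc3 and Pmaip1 were lowest in localized cells, at 14.7 and 4.17 CPM, while Mcl1 was highest in bulk cells, at 140 CPM.

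Read against all genes, few members differed by much. Of the 9 members that met the minimum, 1 was at least 1.5-fold apart in bulk over control (Mcl1, higher), against 6.76% of 9535 genes, of which 4.98% of genes were higher and 1.78% lower. In localized over control 2 were (Bad higher, Bbc3 lower), against 10.7% of genes, with 8.13% higher and 2.61% lower. In bulk over localized electroporation 2 were (Bbc3 and Pmaip1, both higher), against 6.72% of genes, with 3.46% higher and 3.26% lower. Counts of 1 or 2 of 9 members are too small to set apart from these shares. At 2-fold, with 1 CPM added, Bbc3 in bulk over localized electroporation was the only member called, against 1.64% of genes. No member was then called in bulk over control (1.23% of genes) or in localized over control (2.19%). These 2-fold calls depend on the added 1 CPM. Without it the UMI fold was 2.12 (1.85 to 2.43) for Pmaip1 in bulk over localized electroporation. That of Bbc3 in localized over control was 0.492 (0.456 to 0.530). The median ratio of the 9 members was 0.37 in bulk over control, where it was 0.09 over all genes tested, -0.07 in localized over control (all genes 0.12) and 0.36 in bulk over localized electroporation (all genes -0.03). The 6 promoters of death that met the minimum had medians of 0.36, -0.14 and 0.33, and the 3 protectors 0.55, 0.09 and 0.42, in the same order of comparisons. The comparisons share their libraries in pairs and are not independent.

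**Figure D2:**
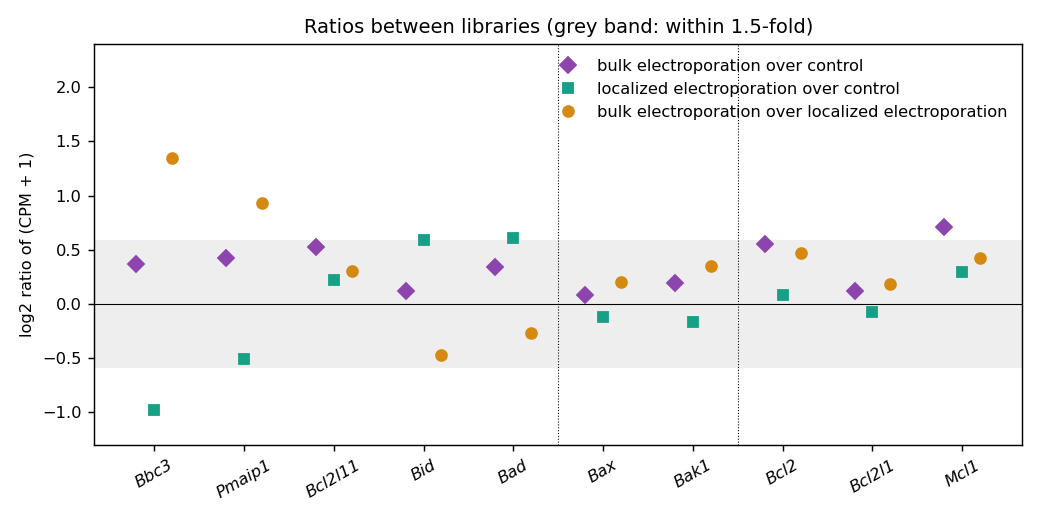
Log2 ratios of CPM + 1 for the 10 members in 3 comparisons, with points inside the grey band within 1.5-fold. Bbc3 lay at 0.37 in bulk over control, -0.98 in localized over control and 1.35 in bulk over localized electroporation, and Mcl1 at 0.71 in bulk over control.

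The scaling mattered for localized over control. With median-of-ratios size factors in place of equal totals, the ratio of the median gene shifted by -0.11 there, by -0.09 in bulk over control and by 0.02 in bulk over localized electroporation. Among genes past 1.5-fold in localized over control, 52.9% were higher under that scaling and 75.7% with equal totals. In bulk over control 56.3% were higher under it and 73.6% with equal totals. Under that scaling Bad lay at 0.50 in localized over control and no longer passed 1.5-fold, whereas Bbc3 lay at -1.09 and Mcl1 in bulk over control at 0.62, both still past it.

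Promoters and protectors were then set against each other as sums of UMIs, in which Bax and Mcl1 weigh most. Protectors summed to 179 CPM in bulk, 135 CPM in localized and 116 CPM in control cells, and BH3-only genes to 98.5, 77.3 and 75.2 CPM in the same order. The effectors summed to 686 CPM in bulk, 592 CPM in localized and 645 CPM in control cells. Protectors made up 18.6% of the UMIs of the 10 members in bulk (exact Clopper-Pearson interval 18.3 to 18.9), 16.8% in localized (16.5 to 17.1) and 13.8% in control cells (13.5 to 14.1). The protector share was thus higher in both treated libraries than in control, and without Mcl1 it was 4.70% in bulk, 4.35% in localized and 4.05% in control cells.

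At the level of single cells, thinning to 3000 UMIs per cell left no cell out and removed the difference in depth. A Bbc3 UMI was then found in 10.3% of bulk (9.48 to 11.1), 4.03% of localized (3.56 to 4.55) and 8.16% of control cells (7.48 to 8.88), and without thinning in 30.5%, 14.4% and 22.3%. A Mcl1 UMI was found in 31.9% of bulk (30.7 to 33.2), 26.6% of localized (25.5 to 27.7) and 21.3% of control cells (20.3 to 22.4) after thinning, and in 71.9%, 65.4% and 51.0% without it. The shares kept the order of the CPM for both genes. Any BH3-only UMI was held by 24.4% of thinned bulk cells (23.3 to 25.6), 21.0% of localized cells (20.0 to 22.0) and 19.5% of control cells (18.5 to 20.5). A promoter UMI without any protector UMI was found in 54.2% of bulk, 57.2% of localized and 62.2% of control cells, and a protector UMI without any promoter UMI in 4.36%, 5.37% and 4.19%. The remaining cells held both or neither, and absence of a UMI in 3000 does not show that a transcript was absent.

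Free RNA could not be separated by a cell type that lacks these genes, since none of the cells here should lack them. In barcodes of 10 to 100 UMIs, Bbc3 stood at 45.5 CPM in bulk (167 UMIs), 17.7 CPM in localized (49 UMIs) and 37.1 CPM in control (111 UMIs). These levels were 1.17, 1.21 and 1.24 times those of cells, so the low-count barcodes showed the same order of libraries as the cells. For Mcl1 the same ratio was 0.772 in bulk, 0.813 in localized and 0.754 in control. For Bad it was 0.636 in bulk, 0.969 in localized and 0.480 in control, and after 10% of each library's UMIs were taken away with the profile of those barcodes Bad lay at 0.56 in localized over control and did not pass 1.5-fold. UMIs outside called cells made up 9.62% of bulk, 9.10% of localized and 17.0% of control.

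The members were followed through 8 clusters made without them and without the other apoptosis genes listed. Cluster 0, the largest with 4962 cells, was replicating-like and led by histone genes, cluster 3 was dividing-like, clusters 4 and 5 were oligodendrocyte precursor-like, and cluster 7, with 121 cells, was oligodendrocyte-like. Cluster 1 was led by Apoe, Pla2g7 and S100a6, cluster 2 by Trp53i11 and Plk2, and cluster 6 by Ifit1, Rsad2 and Isg15, and these stayed unnamed. Clusters 0 to 5 held at least 50 cells of each library, and cluster 1 held 18.5% of bulk, 25.0% of localized and 16.2% of control cells. In all 6, each of Bbc3, Bad, Bax, Bak1 and Mcl1, the members with a mean of at least 20 CPM, lay on the same side as in all cells in every comparison, 30 of 30 pairs of member and cluster each time. With a finer clustering this held for 43 of 55 pairs in bulk over control, 50 of 55 in localized over control and 52 of 55 in bulk over localized electroporation. The sums over all cells contain these clusters, so agreement was partly built in, and it was not counted for other genes. Some ratios were very small, such as 0.0035 for Bak1 in bulk over control and -0.0073 for Bad in bulk over localized electroporation, both in cluster 5.

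The size of the Bbc3 difference varied between clusters. In cluster 4 Bbc3 stood at 47.4 CPM in bulk (195 UMIs), 10.0 CPM in localized (39 UMIs) and 43.3 CPM in control cells (178 UMIs), a ratio of -2.01 in localized over control. In cluster 1, led by Apoe, it stood at 28.4 CPM in bulk, 18.5 CPM in localized and 25.6 CPM in control cells, a ratio of -0.44. In the other oligodendrocyte precursor-like cluster, cluster 5, the ratio was -0.88, against -1.25 in cluster 0, -0.87 in cluster 2 and -0.91 in cluster 3. Localized cells were thus lowest in each, and the differences in size between clusters were not tested. The Bbc3 intervals of bulk and control cells overlapped in clusters 1, 2, 4 and 5. Mcl1 in bulk over control had its lowest ratio in cluster 4, 0.31, and its highest in cluster 2, 0.88. In bulk over localized electroporation Mcl1 lay at 0.08 in cluster 4 and 0.08 in cluster 5, where the intervals of bulk and localized cells overlapped. Those of localized and control cells overlapped for Mcl1 in clusters 1, 3 and 4. Bad in localized over control ranged between 0.44 in cluster 5 and 0.69 in cluster 0, and Pmaip1 in bulk over localized electroporation between 0.34 in cluster 2 and 1.02 in cluster 3. Bcl2l1 differed in sign, at -0.51 in cluster 1 and 0.19 in cluster 0 in localized over control.

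**Figure D3:**
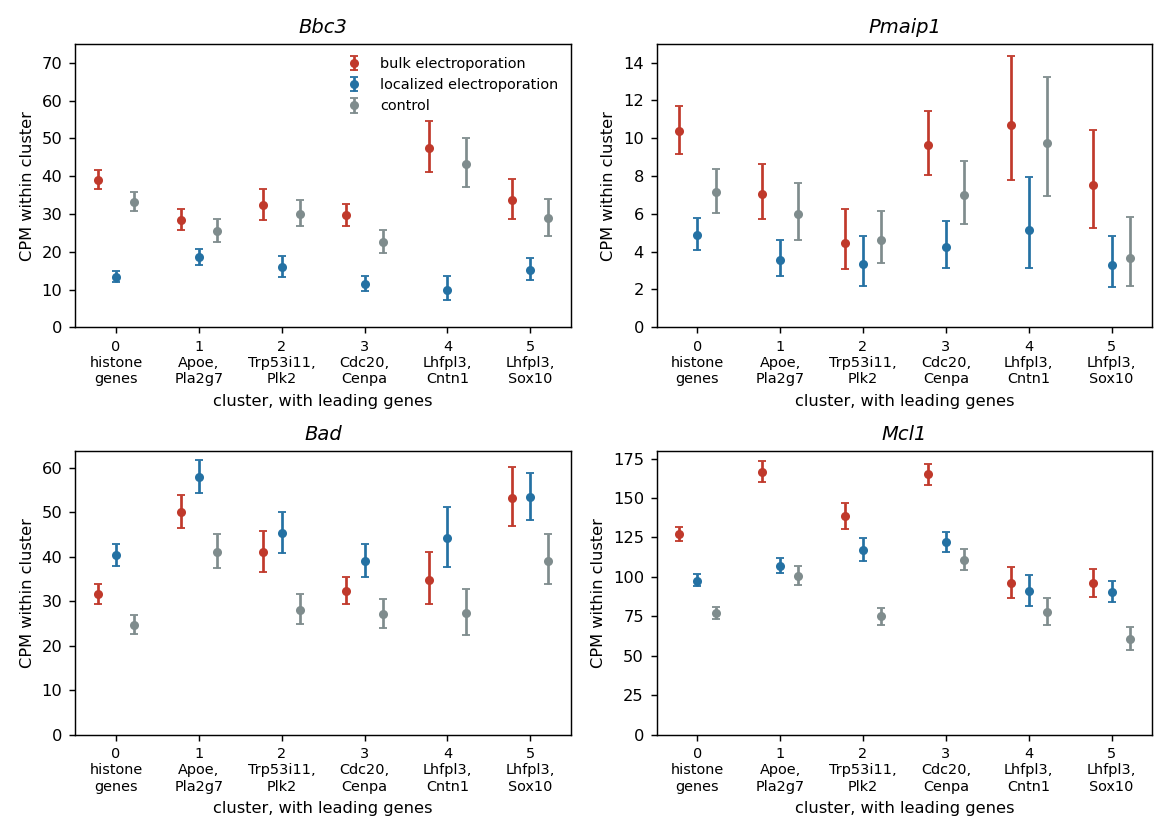
Levels of Bbc3, Pmaip1, Bad and Mcl1 in CPM within clusters 0 to 5, in bulk electroporation, localized electroporation and control (1 library each); bars are exact Poisson intervals at 95%. Bbc3 was lowest in localized cells in each of these clusters, at 10.0 CPM in cluster 4 against 43.3 CPM in control.

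Cluster 6, led by interferon-induced genes, held 374 bulk cells but only 43 localized and 11 control cells. There Bbc3 stood at 74.7 CPM in bulk cells (646 UMIs, 69.0 to 80.7), against 28.4 to 47.4 CPM in bulk cells of clusters 0 to 5. Without cluster 6, which was left out after the data were seen, the Bbc3 ratio was 0.20 in bulk over control and 1.18 in bulk over localized electroporation. The median depth of cluster 6 was 15462 UMIs in bulk cells, and the part of depth in its Bbc3 level was not tested.

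Depth itself moved with Bbc3 in bulk cells. Bulk cells above 25000 UMIs stood at 54.2 CPM of Bbc3 (51.0 to 57.5), while those of 12000 to 25000 UMIs stood at 33.4 CPM (31.4 to 35.4) and those of 3000 to 6000 UMIs at 35.0 CPM (28.5 to 42.6). In localized cells Bbc3 lay between 13.6 and 15.4 CPM in all 4 depth bins. Pmaip1 showed the same step in bulk cells, with 12.6 CPM above 25000 UMIs and 7.65 CPM at 12000 to 25000 UMIs. Without cells above 25000 UMIs the ratio of bulk over control was 0.17 for Bbc3 and 0.23 for Pmaip1, while in bulk over localized electroporation Bbc3 was at 1.14 and Pmaip1 at 0.72. Mcl1 was higher in deeper bins of bulk cells, at 105, 133, 142 and 150 CPM from the shallowest bin to the deepest. Control cells stood at 74.9, 81.3, 91.3 and 91.7 CPM of Mcl1 in the same bins. Localized cells stood at 107, 106, 105 and 96.4 CPM and so did not rise with depth. At 3000 to 6000 UMIs the intervals of bulk (93.9 to 118) and localized cells (94.3 to 121) overlapped. Above 25000 UMIs those of localized (88.3 to 105) and control cells (78.8 to 106) did. Doublets were not removed, and their part in the deepest cells was not tested.

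The mitochondrial share of UMIs, a sign of cell quality, also moved with these results. In the 3899 bulk, 5694 localized and 5076 control cells of up to 5% mitochondrial UMIs, Bbc3 stood at 39.4 CPM in bulk (37.8 to 41.1), 14.4 CPM in localized (13.5 to 15.3) and 31.7 CPM in control cells (30.2 to 33.3). In the 1577 bulk, 592 localized and 991 control cells of 5 to 10%, Bbc3 stood at 37.7 CPM in bulk (35.2 to 40.4), 18.3 CPM in localized (110 UMIs, 15.02 to 22.03) and 19.4 CPM in control cells (183 UMIs, 16.7 to 22.5). The gap between localized and control cells was thus not detectable among cells of 5 to 10%, where that between bulk and control cells was wider. Bad in that bin stood at 41.2 CPM in bulk (38.5 to 44.0), 52.996 CPM in localized and 40.0 CPM in control cells (36.1 to 44.3), so bulk and control cells overlapped there. In cells of up to 5% Bad stood at 37.1 CPM in bulk, 45.6 CPM in localized and 28.1 CPM in control cells. Mcl1 kept its order in both bins, with 146 CPM in bulk, 112 CPM in localized and 98.7 CPM in control cells in the bin of 5 to 10%. There the Mcl1 intervals of localized (104 to 121) and control cells (92.5 to 105) overlapped slightly. The part of cell quality in these results was not tested.

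**Figure D4:**
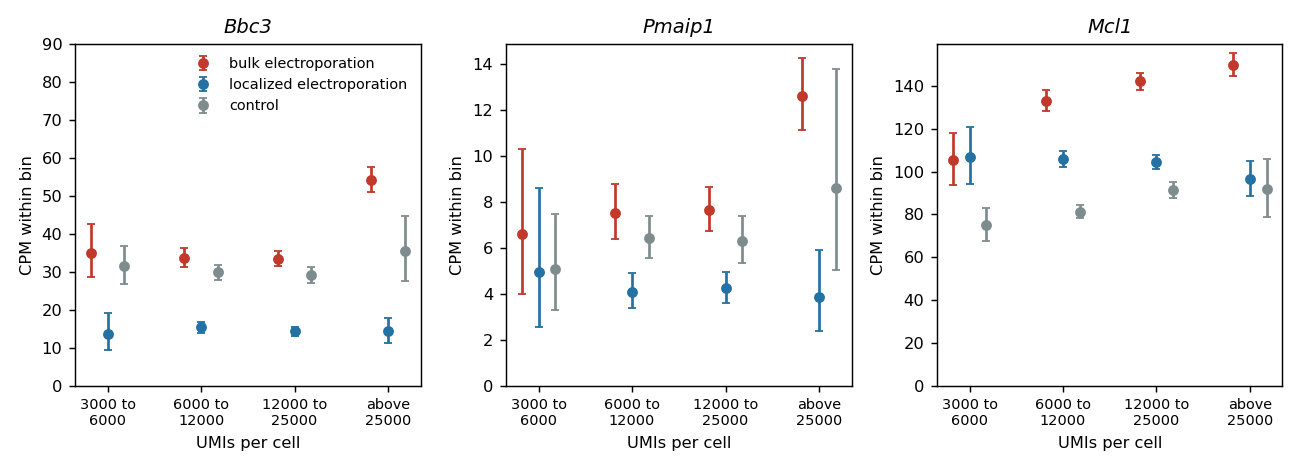
Levels of Bbc3, Pmaip1 and Mcl1 in CPM among cells of 4 depth bins, in bulk electroporation, localized electroporation and control (1 library each); bars are exact Poisson intervals at 95%. Bbc3 stood at 54.2 CPM in bulk cells above 25000 UMIs and at 33.4 to 35.0 CPM in shallower bulk cells.

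Cells were next split, within each library and at 3000 UMIs per cell, by a UMI of Cdkn1a, the p53 target that arrests the cell cycle, or of Ddit3, which encodes the stress factor CHOP. In cells with a Cdkn1a UMI, Bbc3 stood at 46.3 CPM in bulk (42.5 to 50.4), 19.1 CPM in localized (16.4 to 22.0) and 37.7 CPM in control (34.2 to 41.4). In cells without one it stood at 21.6 CPM in bulk (17.6 to 26.2), 9.40 CPM in localized (7.51 to 11.6) and 18.2 CPM in control (15.1 to 21.6). Bbc3 was thus higher in cells with a Cdkn1a UMI in every library, and localized cells were lowest on both sides of the split. In cluster 0 alone the values were 44.4 CPM with and 18.4 CPM without a Cdkn1a UMI in bulk, 16.0 and 6.41 CPM in localized, and 38.5 and 15.7 CPM in control. Pmaip1 too was higher with a Cdkn1a UMI in each library, at 9.86 CPM with and 3.39 CPM without one in bulk. It stood at 6.60 CPM (5.09 to 8.41) and 1.88 CPM in localized, and 6.53 CPM (5.12 to 8.19) and 3.89 CPM (2.57 to 5.67) in control. The 2 control intervals of Pmaip1 thus overlapped, and localized cells with a Cdkn1a UMI were not below those of control. Mcl1 differed less, at 140 and 113 CPM in bulk, 110 and 102 CPM in localized, and 81.9 and 83.8 CPM in control. Bax, a p53 target too, stood at 674 and 563 CPM in bulk, 629 and 479 CPM in localized, and 648 and 534 CPM in control. Cells with a Cdkn1a UMI had been deeper before thinning, with medians of 12400 and 9821 UMIs in bulk, 11517 and 10465 in localized, and 10248.5 and 8180 in control.

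The split by Ddit3 gave Bbc3 at 69.8 CPM with (58.1 to 83.2) and 35.6 CPM without a Ddit3 UMI (32.7 to 38.8) in bulk. In localized cells it was 28.4 CPM with (27 UMIs, 18.7 to 41.3) and 13.7 CPM without (12.1 to 15.5), and in control 39.5 CPM with (34.9 to 44.6) and 24.8 CPM without (22.0 to 27.9). Bbc3 was higher beside Ddit3 in each library, although Ddit3 itself was far lower in bulk (48.7 CPM) and localized (19.7 CPM) than in control cells (217 CPM). Within cluster 0 the localized cells with a Ddit3 UMI held 2 Bbc3 UMIs, too few to read. Bad went the other way in control, at 22.7 CPM with and 35.2 CPM without a Ddit3 UMI. Among 5 such splits computed, that by a UMI of Cxcl10, Isg15, Ifit1 or Rsad2 gave Bbc3 at 54.5 CPM with (48.6 to 60.9) and 31.4 CPM without one (28.1 to 34.9) in bulk cells. Only 75 localized and 42 control cells held such a UMI. By Trp53inp1, a further p53 target, Bbc3 was at 57.6 CPM with and 36.2 CPM without in bulk, 29.1 and 13.0 CPM in localized, and 39.6 and 29.5 CPM in control. By dividing markers it was at 42.7 CPM with and 32.8 CPM without in bulk, 12.5 and 16.9 CPM in localized, and 29.9 and 30.8 CPM in control, so this split had no common direction. These splits describe cells of single libraries, which are not replicates.

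**Figure D5:**
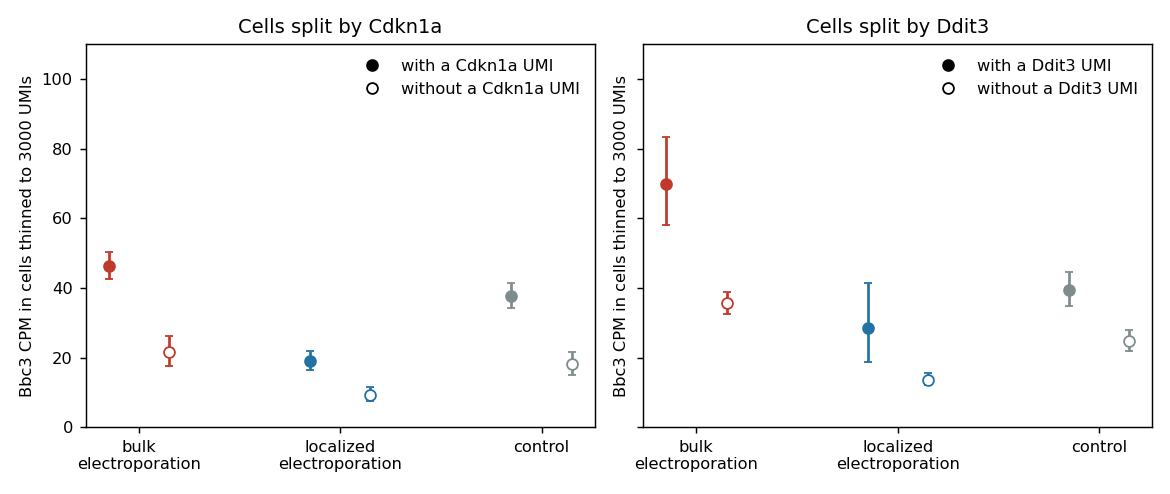
Bbc3 in CPM among cells thinned to 3000 UMIs, with (filled) and without (open) a UMI of Cdkn1a or Ddit3, in bulk electroporation, localized electroporation and control (1 library each); bars are exact Poisson intervals at 95%. Bbc3 stood at 46.3 CPM with and 21.6 CPM without a Cdkn1a UMI in bulk cells, and at 19.1 and 9.40 CPM in localized cells.

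The rest of the pathway was counted from lists of other genes. Of 15 other BCL2 family genes, 6 met the minimum, and 3 of these were at least 1.5-fold higher in localized over control, where 8.13% of all genes were. These were Bnip3l, a mitophagy receptor (119 CPM in localized and 73.0 CPM in control cells, ratio 0.70), Bcl2l12 (0.63) and Bok, a relative of the effectors (55.0 CPM in localized and 35.6 CPM in control cells, 0.61). Under median-of-ratios scaling Bnip3l lay at 0.586, still past the 1.5-fold limit, while Bcl2l12 at 0.52 and Bok at 0.50 were not. None of the 6 passed 1.5-fold in bulk over control, where Bok lay at 0.51, nor in bulk over localized electroporation, where Bnip3l lay at -0.47. The protector genes Bcl2a1a, Bcl2a1b and Bcl2a1d had 0 UMIs in each library.

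Downstream of the mitochondria, 13 of 15 apoptosome and caspase genes met the minimum, and 1 passed 1.5-fold in bulk over control, Diablo, an antagonist of caspase inhibitors (30.1 CPM in bulk cells, 18.7 CPM in control cells, ratio 0.66), where 6.76% of all genes did. None of the 13 did in localized over control, where Birc2, an inhibitor of apoptosis, lay at 0.47, or in bulk over localized electroporation, where Htra2 lay at -0.55 and Apaf1, the scaffold of the apoptosome, at 0.40. In the death receptor arm 5 of 8 genes met the minimum, and Cflar, which blocks caspase-8, was the 1 that passed 1.5-fold in bulk over control, at 20.1 CPM in bulk cells, against 11.7 CPM in control cells (0.73). A single gene of either list is too little to set apart from that share. Cflar lay at 0.578 in localized over control, and no gene of this arm passed 1.5-fold there or in bulk over localized electroporation.

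Among regulators of the members, 13 of 14 met the minimum. In bulk over control 2 of the 13 were at least 1.5-fold higher and 1 lower, against 4.98% and 1.78% of all genes. In localized over control 2 were higher and 1 lower, against 8.13% and 2.61%. In bulk over localized electroporation 1 was higher and 0 lower, against 3.46% and 3.26%. These small counts were not tested against the shares. Ddit3 was lower than in control in bulk (-2.13) and in localized cells (-3.39), and higher in bulk over localized electroporation (1.26). Bag3, a co-chaperone with anti-apoptotic partners, was higher than in control in bulk (1.08) and in localized cells (0.80). Foxo1, a factor that activates Bcl2l11, was likewise higher in bulk (0.83) and in localized cells (0.64), the second of which was 0.54 and no longer past 1.5-fold under median-of-ratios scaling. Mdm2, the p53 target that degrades p53, did not pass 1.5-fold, at -0.52 in localized over control (-0.63 under median-of-ratios scaling, past it) and 0.37 in bulk over localized electroporation. Trp53 itself stood at 85.8 CPM in bulk, 83.1 CPM in localized and 77.0 CPM in control cells.

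The genes most like each of the 5 members with a mean of at least 20 CPM were sought by Pearson correlation of log2(CPM + 1) over 20 sums of library and cluster with at least 50 cells, among 5606 other genes. For Bbc3 they were Aars (r = 0.90), Cars (0.87) and Amz2 (0.86), the first 2 being genes of transfer RNA synthetases. For Mcl1 they were Wasf2 (0.89), Unc119b (0.87) and Inka2 (0.87), and for Bad they were Smim14 (0.96), Selenok (0.95) and Higd2a (0.94). Bax had Lmo1 (0.90), Rpl21 (0.89) and Gpr107 (0.88), and Bak1 had Ptp4a3 (0.92), Amotl1 (0.91) and Dpf3 (0.91). The points share libraries and clusters, so these values describe the sums and carry no test.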

How the data were processed

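UMIs (unique molecules) were counted per gene and barcode for 32285 genes in 3 droplet libraries of transcript 3' ends, with 10000 cells loaded per condition, per the labels' protocols. The deposited counts were whole numbers for all barcodes, with no cell filter applied, and totalled 85743257 in bulk electroporation, 83803032 in localized electroporation and 74429007 in control. Per the file headers, the deposited counts were written by Cell Ranger 4, whereas the submitters' processing notes name the build GRCm38, Cell Ranger 6 and Seurat 4.0.4. The annotation release and whether strand was used in counting were not given in the sources used here. Bid, Bad, Bak1 and Bcl2 overlap a gene on the opposite strand in GENCODE vM21, from which coordinates were taken by gene identifier.

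UMIs were summed over cells and scaled to CPM. Ratios were log2 of CPM after 1 CPM was added, so those of low genes are understated, and a gene was called past 1.5-fold if its mean over the libraries reached 5 CPM. The call was tried on counts simulated with known folds and counting error alone. These held no variation between libraries, so the trial does not show how reliable the call is with 1 library per group. Clusters came from scanpy 1.11.5 (2000 variable genes scaled within each library, 30 principal components, 15 neighbours, Leiden resolution 0.5); a cluster was named where at least 2 fixed markers were among its 10 leading genes. Doublets were not called or removed. The members, lists and markers were chosen with earlier results of these data known. All 10 members are reported, with up to 4 genes of each other list by absolute ratio. Hrk, Bmf, Bik, Trp53, Bcl2a1a, Bcl2a1b and Bcl2a1d, the motifs, the depth and mitochondrial bins and the splits of cells were chosen after values were seen.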

Additional observations from a re-analysis of the deposited data

How the results depend on the processing

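Of 360 member ratios recomputed under 12 alternatives, 356 had the sign of the reported value. The exceptions were Bax in bulk over control and Bcl2 in localized over control under median-of-ratios scaling (-0.0092 and -0.02), and Bcl2l1 in localized over control in the largest cluster (0.19) and with 10% free RNA taken away (0.05). A change of pseudocount cannot alter a sign, and the alternatives share cells, so they are not independent checks. The share of all genes called also moved with the setting and is given in brackets after each count. Members past 1.5-fold in bulk over control numbered 2 with a pseudocount of 0.1 CPM (7.93%), 3 with free RNA taken away (7.945%) and 0 at 2-fold (1.23%). In localized over control they numbered 3 with a pseudocount of 0.1 CPM (12.3%, Pmaip1 added) and 3 with no minimum (5.32% of 32285 genes, Bid added). There they numbered 1 with a pseudocount of 5 CPM (6.03%), 1 with free RNA taken away (13.0%) and 1 with an equal mix of clusters (10.3%). The mix was chosen after the data were seen. Each of these was without Bad (0.57 under the mix), and at 2-fold the count was 0 (2.19%). In bulk over localized electroporation they numbered 1 with a minimum of 20 CPM (5.28%) and 1 at 2-fold (1.64%). The protector share in bulk was 18.2% in cells of 6000 to 20000 UMIs, 17.9% in the largest cluster, 17.9% after thinning and 18.2% with an equal mix. It was 16.5% in the largest cluster and 17.1% with free RNA taken away in localized cells, and 13.4% in the largest cluster and 13.5% after thinning in control. Without thinning, 99.2% of bulk, 98.9997% of localized and 98.4% of control cells held a promoter UMI, and 79.0%, 73.5% and 60.5% a protector UMI, against 88.4%, 84.4% and 85.6%, and 38.6%, 32.6% and 27.6%, with it. The cause of these shifts was not tested. No paired analysis was possible because each group had 1 library. Variation between libraries was not measured, and members under about 10 CPM rest on 183 to 716 UMIs per library.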
